A study of Mus musculus with 6 samples.

Results

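The cytosolic ribosomal protein genes are described here in RNA that was purified with tagged ribosomes from the striatum of mice given morphine or saline. They were chosen by symbol alone, as the rows named Rpl, Rps or Rplp followed by a number and at most a short letter suffix, with every symbol ending in -ps left out. The rule found 86 of the 18732 rows of the authors' deposited table. By annotation, 81 of the 86 are protein-coding genes, 50 of the large and 31 of the small subunit, and the other 5 are processed pseudogenes that carry a gene-like name. The annotation holds 89 genes whose symbol follows the rule, and those with no row were not analysed here. Members whose name ends in l, or in l and a digit, are called like members and number 8; the other members are called core members.

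The mice carried Cre recombinase at the gene of the mu opioid receptor (Oprm1) and, at the Rosa locus, a GFP-L10a fusion that is silent until Cre acts. GFP-tagged ribosomes are therefore made in cells that express, or once expressed, Cre. The genotype reads Oprm1Cre/+ in the sample labels and Oprm1Cre/Cre in the series description, and this was not resolved. There were 3 libraries from mice given morphine and 3 from mice given saline, and each library pooled both hemispheres of 2 brains taken 24 h after the last injection. Morphine was given subcutaneously in rising doses of 20, 40, 60 and 100 mg/kg with 2 injections a day over 5 days, and the control mice received saline. No age is given.

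A ribosome has a large and a small subunit, and each holds its own set of proteins, most of them once per ribosome, on a scaffold of ribosomal RNA. In mammals nearly every ribosomal protein comes from 1 active gene, while the genome holds many intronless copies of their mRNAs, known as retrocopies or processed pseudogenes. The mRNAs are short, abundant and start with a run of pyrimidines, the terminal oligopyrimidine (TOP) motif, through which mTOR and LARP1 set how fully they are loaded with ribosomes when nutrients or growth signals change. In purification with tagged ribosomes, an mRNA is recovered through the ribosomes that it carries.

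The start-site motif is shown for the 5 members with the longest pyrimidine run among those whose run begins exactly at the RefSeq transcription start, because it is the sequence through which the family is known to be controlled. Each line gives 30 bases of the GRCm38.p6 RefSeq promoter table, 5′ to 3′ on the strand of the gene. The capitals mark the pyrimidine run, and the first capital is the annotated first base of the transcript.
Rpl15: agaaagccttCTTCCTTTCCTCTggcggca
Rpl35: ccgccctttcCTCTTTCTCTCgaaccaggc
Rps10: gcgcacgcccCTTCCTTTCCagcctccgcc
Rps18: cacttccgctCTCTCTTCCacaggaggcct
Rps6: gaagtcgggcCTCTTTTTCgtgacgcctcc

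These stretches lie at chr14:18270967-18270996, chr2:39005112-39005141, chr17:27635225-27635254, chr17:33955646-33955675 and chr4:86857348-86857377, all on the minus strand. A run was defined as a C followed by at least 5 bases that are C or T, read on the transcript strand. Within 20 bases on either side of the RefSeq start, a run was found in 40 of the 61 protein-coding members with an entry (65.6%). The same letters were found in 32.8% of the 27025 genes of the table. Among the 10851 protein-coding genes with an entry that were tested for a change, the share was 34.3%. The run began at the first base itself in 11 of the 61 members, against 2.05% of all genes and 2.13% of the tested protein-coding genes. A match describes letters in a short window and depends on where RefSeq places the start. Since the window begins before the start, a run counted near it may lie outside the transcript.

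A second set of sequences shows how closely some rows of the family resemble each other, which matters for where a short read is counted. Each printed stretch is the window of 90 bases with the most differences between the parent and its copy, for Rps3a1 the copy Rps3a3. The stretches thus show less similarity than the whole sequences. The 90 bases from base 172 to base 261 of the Rps3a1 coding sequence are shown first with the same stretch of the pseudogenes Rps3a3 and Rps3a2, from GENCODE M21 transcripts. Capitals mark bases that differ between Rps3a1 and a copy.
Rps3a1: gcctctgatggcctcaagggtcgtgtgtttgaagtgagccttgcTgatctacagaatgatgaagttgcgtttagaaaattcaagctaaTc
Rps3a3: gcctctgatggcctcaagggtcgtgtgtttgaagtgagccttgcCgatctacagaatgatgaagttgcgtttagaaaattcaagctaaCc
Rps3a2: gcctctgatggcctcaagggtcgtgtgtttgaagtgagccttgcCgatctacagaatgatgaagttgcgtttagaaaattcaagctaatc

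Counted from 1 at the first printed base, Rps3a3 differs from Rps3a1 by T45C and T89C, and Rps3a2 by T45C. Over the whole coding sequence Rps3a3 was 99.0% identical to Rps3a1 and Rps3a2 was 99.5% identical. Rps3a1 is a spliced gene of 6 exons on chromosome 3 and both copies are single exons, Rps3a3 at chr13:108670603-108671397 and Rps3a2 at chr14:88123017-88123808 (GRCm38).

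Rpl19 and its retrocopy Gm16238 are shown over bases 109 to 198 of the Rpl19 coding sequence, because the copy passed the test while its parent did not.
Rpl19: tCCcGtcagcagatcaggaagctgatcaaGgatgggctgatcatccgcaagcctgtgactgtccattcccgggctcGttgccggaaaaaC
Gm16238: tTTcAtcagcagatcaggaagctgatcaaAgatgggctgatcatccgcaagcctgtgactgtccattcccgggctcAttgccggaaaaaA

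These 2 differ at 6 of the 90 bases, C2T, C3T, G5A, G30A, G77A and C90A, counted in the same way. Over their whole matched stretch they were 96.4% identical. The pair Rpl36a and Rpl36al was 87.7% identical over the whole coding sequence and so is easier to tell apart. It is shown over bases 91 to 180, where it differs at 16 of 90 bases.
Rpl36a: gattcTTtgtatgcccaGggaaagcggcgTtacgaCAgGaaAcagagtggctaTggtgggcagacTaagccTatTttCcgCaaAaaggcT
Rpl36al: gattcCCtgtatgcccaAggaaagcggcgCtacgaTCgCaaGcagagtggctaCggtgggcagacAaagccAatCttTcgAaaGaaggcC

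How the authors treated reads that match more than 1 place is not given in the sources used here, so the values of members and of their near-identical copies are uncertain to the extent that reads were shared.

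The table gives, for each gene, a mean normalised count over the libraries fitted, a log2 fold change with its standard error (SE), and a Wald p-value with a Benjamini-Hochberg adjusted value. A positive log2 fold change is read as higher after morphine, since positive values fill the sheet of increases; the table does not name the numerator, and every direction would turn if it were saline. The term RM-out in its title is left unexplained, and which of the 6 libraries were fitted is not known. No values per library were analysed here, and the depth of each library is unknown, so the SE is the only measure of spread. No label says whether the pools were handled as separate experiments, and p-values measure only the spread between libraries. In such bulk RNA, fewer tagged cells and less RNA per cell cannot be told apart.

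Of the 17279 tested genes of the authors' deposited table, 13.8% passed adjusted p < 0.05, 11.8% as higher and 2.01% as lower. Of 12 striatal projection neuron markers 12 were measured, and 5 of them passed as higher, the list having a median of 0.32 on the log2 scale. The list was mixed, as 4 of the 12 lay below 0, the lowest being Foxp1 at -0.23, and 0 passed as lower. Most markers of several cell types that should lack the tagged ribosome passed as higher. These were 7 of 8 for oligodendrocytes (log2 values 0.65 to 1.97) and 7 of 8 for astrocytes (median 1.72). For microglia 6 of 7 tested passed (median 2.32), and for choroid plexus 5 of 5 (median 2.48). For endothelial cells 0 of 4 tested passed, with a median of 0.82 and 0 below 0. Their means were only 13.3 to 77.9 and their median SE was 0.84. The part of these other cells in the values of the ribosomal protein genes was not tested.

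None of the 81 protein-coding ribosomal protein genes passed adjusted p < 0.05 in the authors' deposited DESeq2 test, and all 81 were tested. The smallest adjusted p among them was 0.110, for Rpl32. At an unadjusted p < 0.05 there were 5 of 81 (6.17%), all lower, where 22.2% of all tested genes passed that limit in either direction and 5.97% passed it as lower. The single member that passed the adjusted limit was Rps3a3, 1 of the 5 pseudogenes, which fell. Over all 86 rows this is 1.16% called lower, beside the 2.01% of all tested genes, and 0 called higher beside 11.8%. The share called higher differed widely between classes of genes, as the next paragraph gives.

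The protein-coding members lay close together and slightly below 0. Their median log2 fold change was -0.09, with 62 of 81 below 0, where all tested genes of the authors' deposited table had a median of -0.01 with 51.7% below 0. Most members encode small soluble proteins, and 0 of 81 held a predicted signal or membrane segment. Among the 5817 coding genes that lack such a segment and have a mean of 1000 or more, the median was -0.08 with 70.7% below 0. Of these, 124 passed as higher and 122 as lower (2.10%), so few calls in either direction would fall on a set of 81. The 1655 coding genes with a segment at that mean had a median of 0.53, with 988 higher and 3 lower. The members' median thus stood beside that of abundant genes without a segment, and no test of the difference was made.

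**Figure D1:**
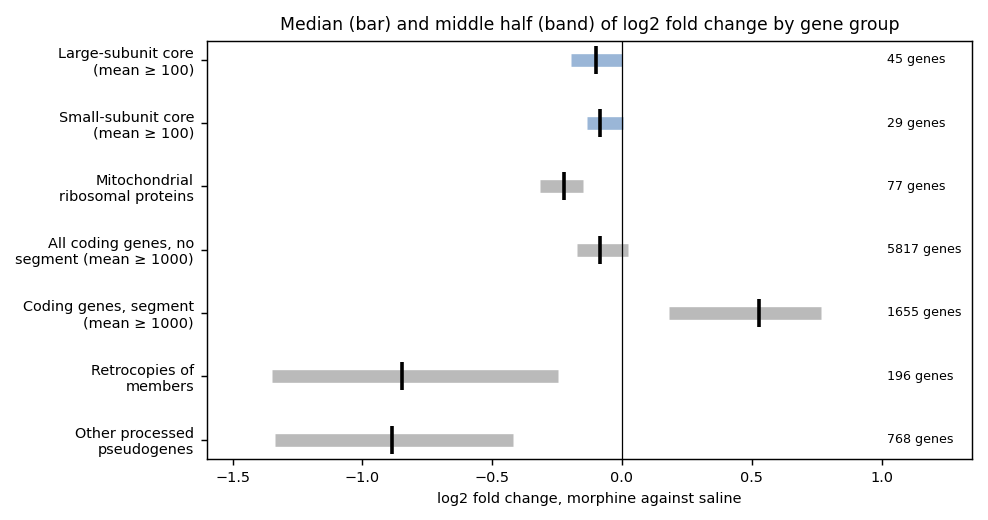
Median log2 fold change (black bar) and interquartile range (band) from the authors' deposited table for the 45 large-subunit and 29 small-subunit core genes with a mean of at least 100, mitochondrial ribosomal protein genes, coding genes without and with a predicted segment at a mean of 1000 or more, and processed pseudogenes. The ribosomal protein genes sit at -0.10 and -0.09 beside the -0.08 of these coding genes without a segment, while retrocopies of members sit at -0.85.

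For the core genes, 74 protein-coding members with a mean of at least 100 allow the closest reading. In the authors' deposited table, 68 of these 74 log2 fold changes lay within 0.25 of 0, and the lowest was -0.32. The standard deviation among the 74 genes was 0.11, while the median SE of a single gene was 0.13, and in 47 of 74 the change was smaller than its own SE. The spread among the genes was thus no larger than the error of a single gene. The 95% Wald intervals of the 45 large-subunit genes all lay between -0.58 and 0.41. The table thus leaves room for a change of 1 such gene by up to these bounds, and a p that misses the limit does not show that a gene stayed the same.

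The 45 large-subunit core genes had a median of -0.10 with 35 below 0, and the 29 small-subunit core genes had a median of -0.09 with 21 below 0, by the authors' deposited table. No member of either group passed the adjusted limit. The difference between the subunits was not tested. Over the 4 large-subunit core genes with no copy of at least 95% identity in the table, the median was 0.0026. That is near 0 beside the SE of 0.13 of each gene. Rplp2 was at -0.17 and Rpl8, Rpl10 and Rpl22 at 0.0036, 0.0018 and 0.0035. With the genes of low mean and the pseudogenes Rps3a2 and Rps3a3 counted as their symbols place them, the medians were -0.10 for 46 large-subunit and -0.09 for 32 small-subunit rows.

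**Figure D2:**
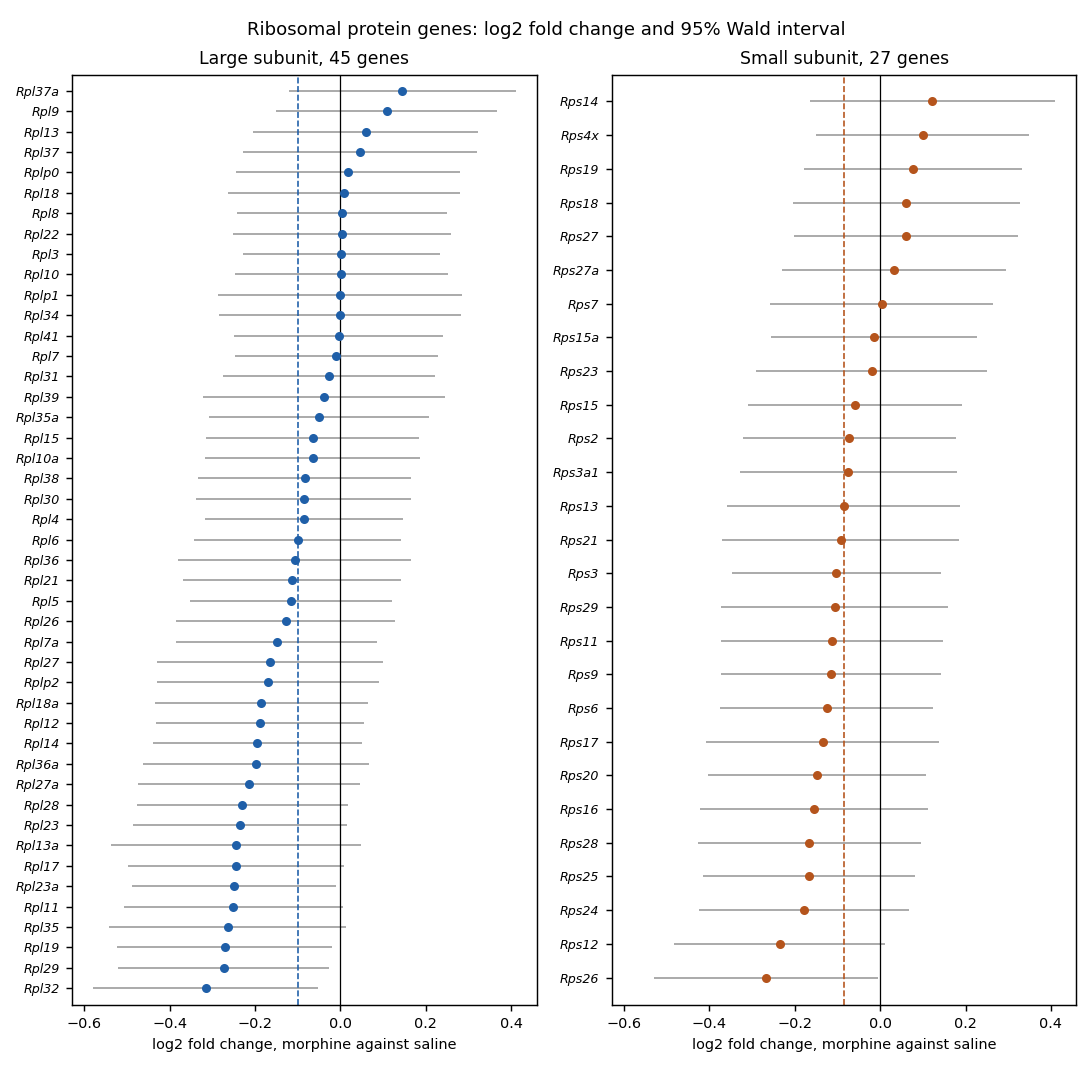
Log2 fold change of protein-coding core genes with a mean of at least 100 (points) with its 95% Wald interval (lines), from the authors' deposited table, for 45 large-subunit and 27 of the 29 small-subunit genes, the other 2 not being shown; the dashed line is the median of all such genes of the subunit. The large-subunit points run from -0.32 (Rpl32) to 0.15 (Rpl37a), and 5 intervals in both panels leave out 0, all on the lower side.

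Rpl10a is the gene of the protein that is fused to GFP in these mice. The authors' deposited DESeq2 table gave it a mean of 5556, a log2 fold change of -0.07 with an SE of 0.13, and an adjusted p of 0.867. It lies on the plus strand of chromosome 17 from 28328471 to 28331033 (GRCm38). Whether reads of the transgene were counted as Rpl10a is not known from the table. Its retrocopy Rpl10a-ps1, 100% identical to it over the coding sequence, had a mean of 204 and stood at -0.64 with an SE of 0.27 (DESeq2 adjusted p = 0.102) in the authors' deposited table.

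Among the 45 large-subunit core genes with a mean of 100 or more, the lowest value belonged to Rpl32, on the minus strand of chromosome 6 from 115805505 to 115808747. By the authors' deposited table its mean was 3252 and its log2 fold change -0.32 (SE 0.13, 0.803-fold, unadjusted p = 0.0186, adjusted p = 0.110 by DESeq2). Rpl29 followed at -0.27 (SE 0.13) and Rpl19 at -0.27 (SE 0.13) in the authors' deposited table, with adjusted p of 0.156 and 0.173 by DESeq2. Rpl35, whose protein sits near the exit of the nascent chain, stood at -0.26 (SE 0.14) there. Rpl11 was listed at -0.25 (SE 0.13) in the authors' deposited table. Its product forms a particle with Rpl5 and the small ribosomal RNA of the large subunit and can bind Mdm2. Its partner Rpl5 had -0.12 (SE 0.12) in the authors' deposited table, so both intervals include 0.

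The highest values of these 45 large-subunit core genes in the authors' deposited table were those of Rpl37a at 0.15 (SE 0.14), Rpl9 at 0.11 (SE 0.13), Rpl13 at 0.06 (SE 0.13) and Rpl37 at 0.05 (SE 0.14). Rplp0, the base of the stalk that recruits translation factors, came next at 0.02 (SE 0.13). The other stalk genes Rplp1 and Rplp2 were listed at -0.001 (SE 0.15) and -0.17 (SE 0.13) in the authors' deposited table. All of these 7 genes had a 95% interval that includes 0.

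Among the 29 protein-coding small-subunit core genes of that mean, Rps26, whose protein lies where the mRNA leaves the ribosome, had the lowest value. The authors' deposited table gave it -0.27 (SE 0.13, unadjusted p = 0.0452, adjusted p = 0.209 by DESeq2). Rps12 followed with -0.24 (SE 0.13), Rps24 with -0.18 (SE 0.13), Rps25 with -0.17 (SE 0.13) and Rps28 with -0.17 (SE 0.13) in the authors' deposited table. Among the highest were Rps14 at 0.12 (SE 0.15), Rps4x at 0.10 (SE 0.13), Rps19 at 0.08 (SE 0.13) and Rps18 at 0.06 (SE 0.14) in the same deposited table of the authors. Rps19 is the gene most often mutated in human Diamond-Blackfan anaemia. Rps6, whose product is phosphorylated by S6 kinases downstream of mTOR, was at -0.13 (SE 0.13) in the authors' deposited table. Rps27a, which encodes a fusion of ubiquitin with a ribosomal protein, was at 0.03 (SE 0.13).

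Several properties that the symbol rule did not use were set beside the fold changes. Across the 74 genes, as a description over genes that share libraries, Spearman's rho with the mean was -0.01, with the coding length 0.10 and with the number of measured retrocopies 0.01. The 31 genes that hold a small nucleolar RNA in their span had a median of -0.11, and the other 43 had -0.05, by the authors' deposited table. The 4 X-linked core genes Rpl10, Rpl36a, Rpl39 and Rps4x had a median of -0.02. Members with the pyrimidine run near the RefSeq start, such as Rpl15 and Rpl35 shown above, had a median of -0.09 over 39 genes whose mean is 100 or more, and the 18 without it had -0.03. None of these differences was tested.

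Levels varied far more than fold changes. The members together made up 0.839% of the summed mean of all genes in the authors' deposited table. Rpl4 had the highest mean, 26813, followed by Rpl3 with 22792 and Rpl41, which encodes one of the shortest known proteins, with 13261, as the authors' deposited table gives them. The lowest means were 17.0 for Rpl24, 17.7 for the pseudogene Rpl6l and 24.0 for Rpl3l. Per kb of annotated exon, the mean level was highest for Rplp1 (24413), Rps15 (20926) and Rps29 (15857), computed from the authors' deposited means. At the other end, the lowest coding members per kb of exon were Rps10 (14.1), Rpl3l (14.6), Rpl24 (16.5) and Rpl36al (26.0).

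Of these 4 genes, 3 share their sequence with an overlapping gene. Exons of another gene on the same strand covered 80.1% of the coding bases of Rps10, 83.4% of Rpl24, 90.3% of Rpl13a and 95.3% of Rpl36al. The overlapping genes, RPS10-NUDT3, Gm28037, Gm45713 and Gm49383 in that order, had no row among those analysed here. The means of the 4 genes in the authors' deposited table were 32.6, 17.0, 1122 and 35.1. No other coding core member was covered over more than 13.6%, and the lowest mean among those 73 core genes was 2218, with a median of 5998. The 3 overlapped core genes thus each had a lower mean than every other protein-coding core gene. How reads in shared exons were counted is not given in the sources used here, and the part of the overlap in these means was not tested. The log2 fold changes of Rpl24 and Rps10 in the authors' deposited table, -0.84 (SE 0.79) and -0.09 (SE 0.56), rest on low counts, and their intervals are wide.

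**Figure D3:**
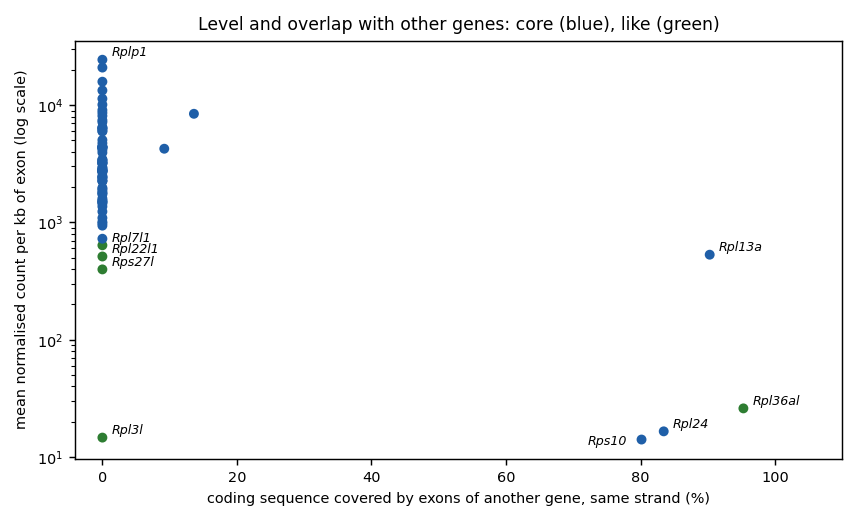
Mean normalised count per kb of exon (log scale), computed from the authors' deposited means, against the share of the coding sequence covered by exons of another gene on the same strand, for 81 protein-coding members; core genes are blue and like genes green. Rps10, Rpl24, Rpl13a and Rpl36al stand at 80.1% to 95.3%, and all other members lie at or below 13.6%.

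Among the like members, the 5 protein-coding genes gave no call. Rpl22l1, the paralogue of Rpl22, had the highest log2 fold change of all 86 rows, 0.19 (SE 0.16, adjusted p = 0.559 in the authors' deposited DESeq2 table), and Rpl22 had 0.00 (SE 0.13). The 2 coding sequences were 74.7% identical over the aligned stretch, and per kb of exon the mean of Rpl22 was 1.97 times that of Rpl22l1. Rps27l, a paralogue of Rps27 that is induced by p53, was at -0.10 (SE 0.22) in the authors' deposited table beside 0.06 (SE 0.13) for Rps27. Rpl7l1 had -0.05 (SE 0.14) and Rpl7 -0.01 (SE 0.12) in the authors' deposited table. Rpl3l, known as the form of Rpl3 used in striated muscle, had a mean of 24.0 against 22792 for Rpl3, with log2 fold changes of -0.14 (SE 0.65) and 0.00 (SE 0.12) in the authors' deposited table. Rpl36al, the intronless coding relative of Rpl36a shown above, was at -0.73 (SE 0.54) beside -0.20 (SE 0.13) for Rpl36a. The median of these 5 was -0.10.

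The 5 members annotated as processed pseudogenes each had a lower log2 fold change than the gene it was copied from. In the authors' deposited DESeq2 table, Rps3a3 fell by 1.36 on the log2 scale with an SE of 0.37, or 0.390-fold, at an adjusted p of 0.00312 and a mean of 82.5. Its parent Rps3a1 was at -0.08 (SE 0.13) with a mean of 8864, and the sister copy Rps3a2 at -0.71 (SE 0.44, adjusted p = 0.366) with a mean of 57.0, both in the authors' deposited table. Rps3a1 and Rps3a3 thus differ in value while they share nearly all of the printed sequence. Rpl32l was at -1.04 (SE 0.58) beside Rpl32 at -0.32, and Rpl6l at -1.31 (SE 0.77) beside Rpl6 at -0.10, in the authors' deposited table. Rps4l, 80.2% identical to Rps4x, was at -0.31 (SE 0.18) beside 0.10 for Rps4x. The median of the 5 was -1.04, and 4 of the 5 did not pass the limit.

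**Figure D4:**
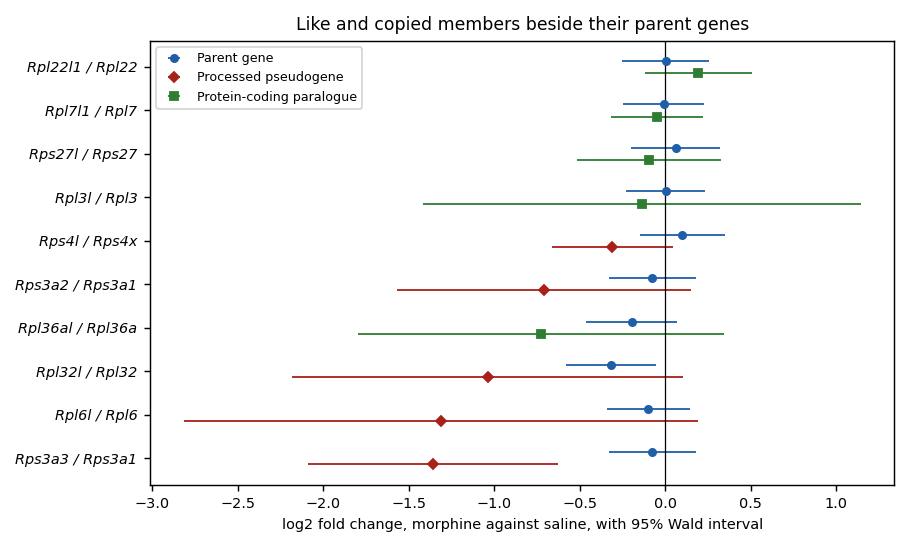
Log2 fold change with 95% Wald interval, from the authors' deposited table, for the 8 like members and for Rps3a2 and Rps3a3 (green squares protein-coding, red diamonds processed pseudogenes), each beside its parent gene (blue circles). Rps3a3 at -1.36 is the only one whose interval lies wholly below 0 apart from the parent Rpl32 at -0.32.

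The comparison of genes with and without retrocopies was extended to every annotated copy. Matched by sequence over at least 50% of a member's coding sequence, 2308 processed pseudogenes were annotated for 80 of the 81 protein-coding members, 169 of them for Rpl7a, and Rpl3l had none. Of these, 245 had a row in the authors' deposited table, for 73 members, and 196 were tested. Of the 196, 33 passed adjusted p < 0.05 as lower (16.8%), beside 2.01% of all tested genes, and 0 as higher. Their median log2 fold change was -0.85, and 161 of 196 lay below their parent. Of the 196, 5 are the pseudogene members named above, and without these 32 of 191 passed with a median of -0.85. Other processed pseudogenes, those not matched in this way, stood beside them with 146 of 768 called lower, 0 higher and a median of -0.89. These may include shorter copies that match less than 50% of a member's coding sequence.

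Among the copies, Gm10136, a copy of Rpl26, fell by 1.70 on the log2 scale with an SE of 0.28 (adjusted p = 9.21e-08 by DESeq2) at a mean of 172, as the authors' deposited table gives it. Gm16238, the copy of Rpl19 printed above, fell by 1.63 (SE 0.28, adjusted p = 2.20e-07) at a mean of 204 in the same deposited table by the authors. Rpl3-ps1, with 99.8% identity to Rpl3, fell by 0.85 (SE 0.21, adjusted p = 0.000572) there, while Rpl3 itself was at 0.00 (SE 0.12). Not every copy was low. Gm10736, 100% identical to the coding sequence of Rpl41, was at 0.15 (SE 0.20), Gm34583, a copy of Rpl29, at 0.21 (SE 0.22) and Gm2830, a copy of Rps24, at 0.11 (SE 0.20) in the authors' deposited table. These copies were named after their values were seen.

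The median lay below 0 in copies of high and of lesser identity, but the share called lower was not alike. Among copies at least 98% identical to the parent, 23 of 108 (21.3%) passed as lower with a median of -0.78. From 95% to 98% identity, 9 of 57 (15.8%) passed with a median of -1.13 in the authors' deposited table. Below 95% identity, 1 of 31 (3.23%) passed with a median of -0.47, beside 2.01% called lower among all tested genes. The difference between these classes was not tested. With a mean of at least 100, where errors are smaller, 10 of 28 (35.7%) passed, 24 of 28 lay below their parent, and the median was -0.64. Of the other processed pseudogenes with such a mean, 45 of 97 (46.4%) passed as lower, with a median of -0.73.

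**Figure D5:**
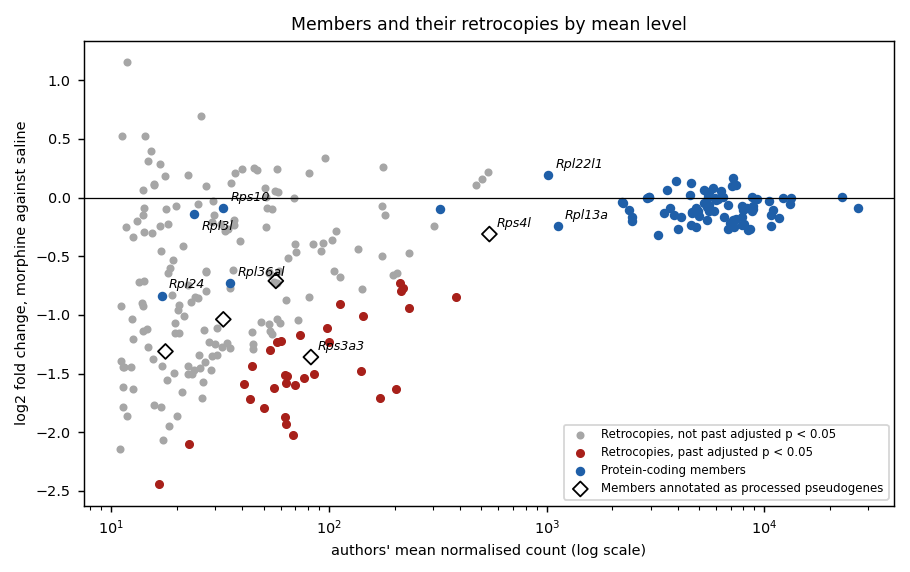
Log2 fold change against the authors' mean normalised count (log scale), both from the authors' deposited table, for protein-coding members (blue), members annotated as processed pseudogenes (black diamonds) and other retrocopies (grey, or red where adjusted p < 0.05). The blue points of high mean lie near 0, while the red points, all lower, reach -2.45.

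The copies carried little of the signal beside their parents. The summed mean of a gene's copies in the authors' deposited table was a median of 1.99% of its own mean among the 74 core genes, and at most 12.3%, for Rpl29. The 69 core genes with a copy in the table had a median log2 fold change of -0.10. The 5 without one had a median of 0.00. Among them, Rplp2 was at -0.17 and Rpl8, Rpl10 and Rpl22 lay within 0.01 of 0 in the authors' deposited table. The 26 genes with a copy that was called lower had a median of -0.11. The difference between genes with and without a copy was not tested.

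Genes that work beside the ribosomal proteins were counted in the same way, beside 2.01% called lower and 11.8% called higher among all tested genes. Lists this short would hold few lower calls at that share, so a count of 0 says little. Of the 4 ribosomal protein genes that the symbol rule misses, Rpsa, Fau and Rack1 among them, 0 passed, and Rpsa had the smallest p, at 0.13 on the log2 scale with an SE of 0.12 (adjusted p = 0.630 by DESeq2) in the authors' deposited table. Of 17 other mRNAs with a TOP motif, 0 passed, 15 lay below 0 and the median was -0.12. The smallest p among them was that of Naca, a subunit of the nascent polypeptide-associated complex, at -0.30 with an SE of 0.13 (DESeq2 adjusted p = 0.108 in the authors' deposited table). Of 15 regulators of ribosomal protein mRNA translation, such as Mtor and Larp1, 0 passed, with a median of 0.04 and the smallest p for Cnbp, at -0.19 (SE 0.12) in the authors' deposited table.

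Genes that make ribosomes were mostly below 0, as were 51.7% of all tested genes and 70.7% of the abundant coding genes without a segment. Of 16 tested genes of ribosomal RNA synthesis 0 passed, with a median of -0.11, and Ubtf, a transcription factor of RNA polymerase I, had the smallest p, at -0.24 with an SE of 0.12 (DESeq2 adjusted p = 0.222 in the authors' deposited table). Of 44 tested genes of pre-rRNA processing and subunit assembly, 43 lay below 0, the median was -0.16 and 1 passed (2.27%), beside 2.01% of all tested genes called lower. It was Ncl, the gene of nucleolin, which fell by 0.39 on the log2 scale (SE 0.14, adjusted p = 0.0495) in the authors' deposited DESeq2 table. Of 12 tested chaperones of ribosomal proteins 0 passed, with a median of -0.14 and the smallest p for Nap1l4 at -0.32 with an SE of 0.13 (DESeq2 adjusted p = 0.0780 in the authors' deposited table). Of 4 genes of the nucleolar stress response, 0 passed, with a median of -0.02, and Mdm2 was at 0.11 (SE 0.13) in the authors' deposited table.

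The genes with an Mrpl or Mrps symbol are named after the mitochondrial ribosome, which translates the mRNAs of the mitochondrial genome. They were chosen by symbol alone, and whether each, Mrps36 included, encodes a protein of that ribosome was not checked. As a set they lay lower than the cytosolic set. These 77 genes had a median of -0.22 with 76 below 0, and 3 passed as lower (3.90%), beside 2.01% of all tested genes. By the authors' deposited table, Mrps36 fell by 0.50 (SE 0.17) and Mrpl21 by 0.46 (SE 0.17) on the log2 scale, with adjusted p of 0.0255 and 0.0414 by DESeq2. The third was Mrpl39. The difference between the cytosolic and the mitochondrial set was not tested.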

How the data were processed

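RNA was purified through GFP-L10a from striatum, in 3 morphine and 3 saline libraries, with RNA integrity numbers above 8 and the NEBNext Ultra II kit, per the labels. Only the authors' comparison table was used, in 4 sheets, the full one of 18732 genes. The authors' deposited mean is a signal, counts divided by size factors and averaged. The authors' deposited fold change and SE are log2 values, their deposited quotient is a score (the Wald statistic), and the deposited p-values carry Benjamini-Hochberg adjusted p-values. STAR 2.6.1d, DESeq2 1.20.0, GRCm38 and mm10 are named, with no roles, per the submitters' processing notes; the counter, strand setting, annotation, model and filters are each not given in the sources used here. An adjusted p was given for 17279 genes, and the other 1453 have a mean of at most 10.9. The value of every gene in a smaller sheet equals that in the full sheet.

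Members and lists were chosen with earlier results of these data known. Identifiers were matched to the GENCODE M21 annotation (GRCm38), where 18726 had a symbol and 6 had none. Wald intervals are the change ± 1.96 SE and cover 95%. Retrocopies are annotated processed pseudogenes whose best hit by blastn 2.17.0 (E-value at most 1e-10) covers at least 50% of a member's coding sequence. A segment is a window of 19 residues with mean Kyte-Doolittle hydropathy of at least 1.9, or of 12 residues within the first 40 with at least 2.2. The level per kb divides the mean by the union of annotated exons. No test was added: lists are given by counts and medians. Alternatives were adjustment over genes with a mean of at least 100, other thresholds, filters on the members and 3 shifts of the fold changes. The genes named are Rpl10a, called members, the 5 highest and 5 lowest of each subunit among core members whose mean is 100 or more, the 3 highest and 3 lowest means, like members with their parents, and in each list up to 2 called genes in each direction or the 1 with the smallest p. Others were added to describe roles, or after their values were seen. The values of a few genes are not reported here. The recomputed adjustment and shifts were tested on simulated data. The scripts ran in Python 3.11.15 with pandas 2.3.3, numpy 2.4.6, Biopython 1.88, scipy 1.17.1 and, for figures, matplotlib 3.10.9.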

Additional observations from a re-analysis of the deposited data

How the results depend on the processing

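Of 60 alternatives for the counts and medians of the family, 5 went past the limit set for a move, which was 1.5 times a count or, for a median, the median SE of a member (0.13). That limit is wide for medians of many genes, so their ranges over 9 alternatives each are given: -0.14 to -0.037 for all rows (-0.10 as reported), -0.10 to 0.0026 for large-subunit core members (-0.10), -0.24 to -0.027 for small-subunit core members (-0.09) and -0.22 to -0.073 for like members (-0.22). The value of 0.0026 and that of -0.24 both come from leaving out members with a copy at least 95% identical over 50% of the coding sequence, a setting chosen after seeing the data that keeps only 4 large-subunit and 5 small-subunit rows, 2 of the latter being the pseudogenes Rps3a2 and Rps3a3. The value of -0.073 is for like members with a mean of at least 100. The count of members called lower went from 1 to 0 with adjustment over genes whose mean is 100 or more, with members of that mean only, and with protein-coding rows only, since Rps3a3 has a mean of 82.5 and is a pseudogene. All 336 alternatives for single members kept the call. They leave out Rps3a3 and other members with a mean under 100 in the adjustment over genes whose mean is 100 or more. The only called member was thus checked there by the count alone, which went to 0.

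Shifting all fold changes by the median of all tested genes (-0.01), of tested genes with a mean of at least 1000 (-0.04) or, chosen after seeing the data, of tested coding genes without a segment (-0.06) turned the sign of 5, 9 and 12 of the 86 members and changed 0 calls. With these shifts 51, 47 and 45 of the 74 core genes were below 0, against 56 as deposited. No paired analysis was possible because values per library were not analysed here, and for the same reason no library was left out, the depth is unknown and no other normalization of the counts was run.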
